A study of Mus musculus with 22 samples.

Results

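Prostaglandin and leukotriene genes were examined in the mouse spinal cord after the aorta had been clamped. The set was a list of 9 genes that cover synthesis of prostaglandins (Ptgs1, Ptgs2, Ptges, Ptgds), receptors for prostaglandin E2 (Ptger2, Ptger4) and synthesis of leukotrienes (Alox5, Alox5ap, Ltc4s). Of these, 8 were measured among 18193 genes, through 13 probe sets, and Ptgs1 was not analysed here because no probe set carried its symbol alone. Each gene was read from the probe set with the highest mean over all arrays, and its other probe sets served as a check.

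Total RNA of the cord had been hybridised to 22 Affymetrix Mouse430_2 arrays. All mice were wild-type C57Bl/6 animals aged 10 to 12 weeks. In the clamped groups blood flow through the aorta was stopped for 7.5 min and the cord was taken 24 h or 48 h later, while the control groups had a sham operation. The cord was divided at T6 into a caudal part below and a rostral part above that level, each on arrays of its own. There were 4 caudal and 4 rostral arrays at 48 h (numbered 271 to 274), 3 caudal and 3 rostral arrays at 24 h (281 to 283), 3 sham caudal arrays (278 to 280) and 4 sham rostral arrays (277 to 280). Rostral array 276 is labelled with both times and was left ungrouped. Nothing in the labels ties each array to its own animal, so the p-values describe how far these samples scatter, which may be technical. Values are log2 RMA signals, differences are log2 differences with their standard error (SE), and adjusted p-values are Benjamini-Hochberg values of the limma fit over 18193 genes, with a call at 0.05. The signal of one probe set is not comparable with that of another, so each gene is compared only with itself.

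Prostaglandins are made from arachidonic acid, which phospholipases release from membranes. Cyclooxygenases (Ptgs1 and the inducible Ptgs2) turn it into an unstable intermediate, and terminal synthases such as Ptges and Ptgds make the individual prostaglandins from it, which act on cell-surface receptors. In the parallel route 5-lipoxygenase (Alox5) works with its activating protein FLAP (Alox5ap) to make leukotriene A4, from which Ltc4s makes leukotriene C4. In the spinal cord prostaglandin E2 is known for its part in pain and inflammation, and lipocalin-type prostaglandin D synthase is abundant in the meninges and in oligodendrocytes.

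The promoters of the prostaglandin E2 pair, Ptgs2 and Ptges, are printed because these genes stand in succession in one route and both rose below T6 at 48 h. They run from 250 bases before to 50 bases after the annotated start (RefSeq, GRCm38.p6), at chr1:150099781-150100080 on the plus strand for Ptgs2 and chr2:30903248-30903547 on the minus strand for Ptges, and capitals mark the letters of matched motifs.
Ptgs2: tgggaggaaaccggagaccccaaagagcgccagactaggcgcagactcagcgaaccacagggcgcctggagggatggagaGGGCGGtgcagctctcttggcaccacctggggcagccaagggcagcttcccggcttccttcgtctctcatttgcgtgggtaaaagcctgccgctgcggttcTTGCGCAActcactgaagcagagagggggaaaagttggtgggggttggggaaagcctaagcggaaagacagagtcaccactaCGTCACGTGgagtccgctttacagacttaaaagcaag
Ptges: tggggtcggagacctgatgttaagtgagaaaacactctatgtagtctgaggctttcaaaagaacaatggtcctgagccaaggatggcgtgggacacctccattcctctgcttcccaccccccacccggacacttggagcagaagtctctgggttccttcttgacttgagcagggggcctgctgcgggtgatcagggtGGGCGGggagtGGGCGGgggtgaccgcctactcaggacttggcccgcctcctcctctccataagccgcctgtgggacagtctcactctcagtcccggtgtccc
Positions count from +1 at the first base of the gene. In Ptgs2 the capitals are a GC box (GGGCGG) at −170, a C/EBP-type match (TTNNGCAA) at −69, the core TGACG of a cyclic AMP response element on the opposite strand at +14, and an E-box (CACGTG) at +17 that overlaps it. In Ptges they are 2 GC boxes, at −53 and −42. Both strands were searched, and of all 32851 promoters of this length that RefSeq lists, 35.7% hold GGGCGG, 10.8% hold TTNNGCAA, 20.8% hold TGACG and 7.15% hold CACGTG. The letters TATAAA (in 13.6% of the promoters) and an NF-kappaB-type motif (in 1.63%) were searched too and did not match in these 2 windows. A match describes the sequence and does not show that a factor binds there. Sequences were at hand for 7 of the 8 measured genes, without Alox5ap.

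Some arrays stood apart. Several results that rest on them are given with and without them, while others, among them all marker calls, are given only with them. Hoxc10, a gene of caudal cord identity, was 5.67 on the 24 h array labelled caudal 283 and 10.14 on the one labelled rostral 283, against 9.19 to 10.48 on the other caudal and 5.32 to 6.22 on the other rostral arrays. Directions at 24 h that draw on these 2 arrays are therefore those of the libraries labelled caudal and rostral. Caudal 48 h array 271 had a median correlation with the other arrays of 0.912, and the 5-prime minus 3-prime signal of the Gapdh control was −1.05 on array 274 of the caudal 48 h group and −0.68 on array 280 of the sham caudal group. The marker lists averaged a log2 signal of 11.44 to 12.49 over the arrays for neurons, 12.16 to 12.55 for oligodendrocytes and 11.30 to 12.06 for astrocytes. The neuron list was 11.44 on caudal 48 h array 271, against 12.21 to 12.37 on the other caudal 48 h arrays and 12.47 to 12.49 on the sham caudal arrays. A list of 10 heart muscle genes averaged 9.23 to 10.57 on rostral and 6.28 to 8.04 on caudal 48 h arrays. It averaged 5.48 to 5.61 on sham arrays, 5.57 to 5.80 on rostral and 5.59 to 5.69 on caudal 24 h arrays. Its part in the results was not tested. The numbers in the titles run in blocks by treatment and time, so an effect of their order cannot be told apart from these.

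Below T6 at 48 h, 3 of the 8 measured genes rose and none fell: Ptgs2, Ptges and Alox5ap. Over all genes 12.5% were called in this comparison, and 5.52% were called as higher. The 2282 genes behind that share became 805, 986 and 1054 without sham caudal array 278, 279 and 280 in turn, and 3667 and 5736 without caudal 48 h array 273 and 274. The median difference was 0.20 over the 8 genes and 0.00 over all genes. Above T6 at 48 h none of the 8 was called, where 0.61% of all genes were. At 24 h none was called in either region, where 0.0055% of all genes were called below T6 and 0% above it. At an unadjusted p under 0.05 limma counted 6241 genes below and 1288 above T6 at 48 h, and 528 below and 142 above it at 24 h. Both times were compared with the same sham arrays.

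**Figure D1:**
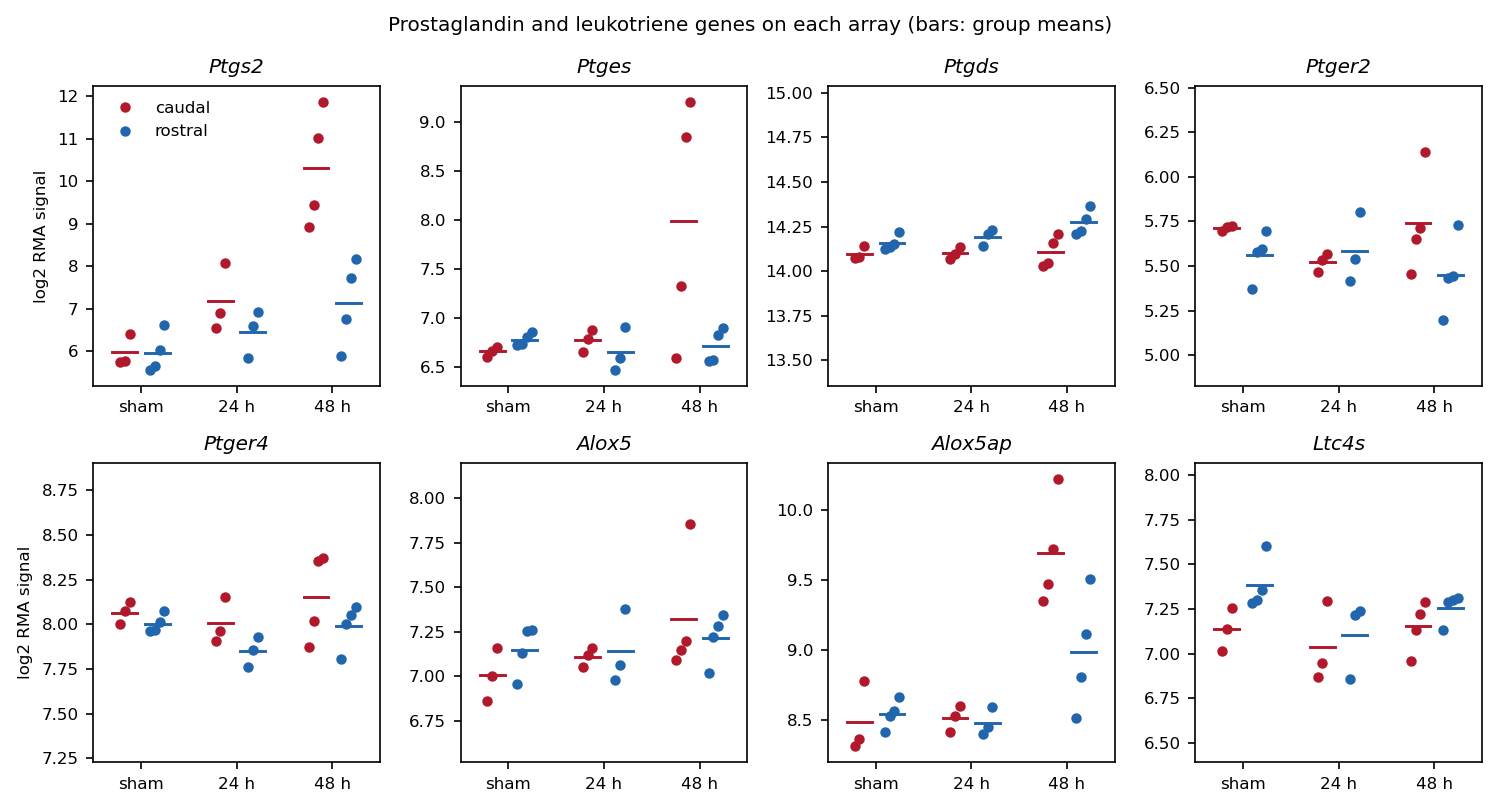
Log2 RMA signal of the 8 measured genes on each of the 21 grouped arrays, by time (sham, 24 h, 48 h), with caudal arrays in red, rostral arrays in blue and group means as bars. Each panel has its own scale, and the caudal 48 h arrays stand above the sham caudal arrays for Ptgs2 (8.92 to 11.86 against 5.74 to 6.41) and Alox5ap (9.35 to 10.22 against 8.31 to 8.77).

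Ptgs2, the inducible cyclooxygenase, had the widest difference of the 8. Its log2 signal was 11.86, 11.03, 9.43 and 8.92 on caudal 48 h arrays 271 to 274, and 6.41, 5.77 and 5.74 on the sham caudal arrays. All 4 clamped arrays lay above all 3 sham arrays, and the clamped arrays differed widely among themselves. The means were 10.31 ± 1.37 in caudal cord at 48 h and 5.97 ± 0.38 in sham caudal cord (SD, n = 4 and 3). The difference was 4.34 ± 0.61 (SE, 95% interval 3.07 to 5.61, adjusted p = 0.000171), which is 20.2-fold (8.39 to 48.7). Without caudal array 271 it was 3.82 ± 0.56 (adjusted p = 0.000265), and without caudal arrays 271, 274 and 280 it was 4.14 ± 0.67 (adjusted p = 0.000507). Its other probe set differed by 3.12 (adjusted p = 0.00223). The sham reference was dim on both probe sets. On the one used, all 3 sham caudal signals lay under the median of their arrays, though above the lower quartile. The other one averaged 7.79 in caudal cord at 48 h and 4.66 in sham caudal cord, where the smallest lower quartile of any array was 5.17. How far these dim references set the size of the fold was not tested.

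Above T6 the rostral 48 h arrays 271 to 274 gave Ptgs2 signals of 7.73, 8.18, 6.75 and 5.88, and the sham rostral arrays gave 6.03, 6.60, 5.64 and 5.56. Arrays 271, 272 and 273 were above every sham array and array 274 lay among them. The difference of 1.18 ± 0.56 (95% interval 0.00 to 2.35) did not pass the adjustment (adjusted p = 0.703). With arrays weighted by quality it was 1.25 (adjusted p = 0.0421). Those weights were estimated by limma from the scatter of these same arrays and are not a separate measure of quality.

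The 24 h caudal arrays gave Ptgs2 signals of 8.07, 6.9 and 6.54, the last from the array numbered 283. All 3 were above the highest sham caudal array at 6.41, a pattern that 8.65% of all genes showed in this direction. The difference of 1.20 ± 0.65 was not called (95% interval −0.16 to 2.55, adjusted p = 1.0), and without both arrays numbered 283 it was 1.51 ± 0.75. Without caudal 24 h array 281, the highest of the 3, it was 0.75 ± 0.70. The 24 h rostral arrays gave 5.84, 6.93 and 6.59, which overlapped the sham rostral arrays (difference 0.50 ± 0.61, adjusted p = 1.0). Between the times, caudal cord at 48 h was above caudal cord at 24 h by 3.14 ± 0.61 (adjusted p = 0.00427), or 8.82-fold, with no overlap. Without both arrays numbered 283 that difference was 2.83 ± 0.71 and was no longer called (adjusted p = 0.0678).

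Ptges, the microsomal synthase that makes prostaglandin E2 from the product of the cyclooxygenases, rose below T6 at 48 h on some arrays and not on others. Its signal was 9.20, 8.84, 7.32 and 6.59 on caudal 48 h arrays 271 to 274, and 6.66, 6.70 and 6.60 on the sham caudal arrays. The first 3 clamped arrays were above all sham arrays, and array 274 was below the lowest of them, so that the groups overlapped. The means were 7.99 ± 1.24 in caudal cord at 48 h and 6.65 ± 0.05 in sham caudal cord (SD, n = 4 and 3), a difference of 1.33 ± 0.39 (adjusted p = 0.0341), or 2.52-fold (95% interval 1.42 to 4.46). Its other probe sets differed by 1.01 (adjusted p = 0.0389) and 0.91 (adjusted p = 0.0485). The call rested on single arrays. It ended without caudal 48 h array 271 (0.93, adjusted p = 0.0640) or 272 (1.05, adjusted p = 0.0706), without sham caudal array 278, 279 or 280 (adjusted p = 0.103, 0.0854 and 0.0991), and without both arrays numbered 283 (adjusted p = 0.0537). With only the compared groups in the fit it ended too (adjusted p = 0.481). With arrays weighted by quality the difference was 0.83 (adjusted p = 0.00212). The weights of caudal 48 h arrays 271 to 274 were 0.026, 0.47, 2.77 and 0.19, so that this group rested mostly on array 273.

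Above T6 at 48 h Ptges gave 6.83, 6.89, 6.56 and 6.57, against 6.81, 6.73, 6.72 and 6.85 on the sham rostral arrays. The clamped arrays lay on both sides of the sham arrays, and the difference was −0.06 ± 0.36 (95% interval −0.83 to 0.70, adjusted p = 1.0). At 24 h the caudal arrays gave 6.65, 6.79 and 6.87 and the rostral arrays 6.9, 6.59 and 6.47. Neither group was separated from its sham arrays, with differences of 0.11 ± 0.42 below and −0.12 ± 0.39 above T6. Caudal cord at 48 h differed from caudal cord at 24 h by 1.22 ± 0.39 (adjusted p = 0.0684). Without caudal 48 h array 273 (1.44, adjusted p = 0.0293) or 274 (1.69, adjusted p = 0.000952) this difference passed the threshold.

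Ptgds, the lipocalin-type prostaglandin D synthase, ranged from 14.03 to 14.37 over all grouped arrays. The caudal 48 h arrays gave 14.04, 14.16, 14.21 and 14.03, against 14.07, 14.08 and 14.14 on the sham caudal arrays, which lay inside the range of the clamped ones. The difference of 0.01 ± 0.07 has a 95% interval of −0.14 to 0.16. The rostral 48 h arrays gave 14.37, 14.29, 14.21 and 14.23, against 14.12, 14.13, 14.15 and 14.22 on the sham rostral arrays. Here 3 clamped arrays were above the highest sham array, and the difference of 0.12 ± 0.07 was not called (adjusted p = 0.880). The second probe set of Ptgds differed by 0.07 ± 0.13 below T6 and by 0.25 ± 0.12 above it (unadjusted p = 0.0507, adjusted p = 0.769). Between caudal and rostral cord at 48 h the difference was −0.36 ± 0.12 on that probe set (adjusted p = 0.0698) and −0.16 ± 0.07 on the brighter one (adjusted p = 0.126).

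The receptors Ptger2 (EP2) and Ptger4 (EP4), both of which raise cyclic AMP when prostaglandin E2 binds, were not called in any comparison. Ptger2 was dim, at 5.2 to 6.14 over the grouped arrays, below the median of every array (6.79 to 6.88) and near the lower quartile (5.17 to 5.52). It gave 6.14, 5.65, 5.46 and 5.71 on caudal 48 h arrays 271 to 274, around the sham caudal values of 5.70, 5.72 and 5.72, and the difference was 0.03 ± 0.14 (95% interval −0.27 to 0.33). Ptger4 gave 8.37, 7.87, 8.02 and 8.36 on the caudal 48 h arrays, against 8.07, 8.0 and 8.12 on the sham caudal arrays. Arrays 271 and 274 were above the sham arrays and 272 was below them, with a difference of 0.09 ± 0.11 (95% interval −0.15 to 0.33). Its other probe set averaged 4.67 in caudal cord at 48 h and 4.57 in sham caudal cord, below the lower quartile of every array, and so adds little as a check.

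Of the leukotriene genes, Alox5ap (FLAP), the membrane protein that presents arachidonic acid to 5-lipoxygenase, rose below T6 at 48 h. Its signal was 10.22, 9.72, 9.47 and 9.35 on caudal 48 h arrays 271 to 274, and 8.37, 8.31 and 8.77 on the sham caudal arrays. The groups did not overlap, which 8.9% of all genes shared in the higher direction, and of the 8 genes only Ptgs2 and Alox5ap did so in this comparison. The means were 9.69 ± 0.39 in caudal cord at 48 h and 8.48 ± 0.25 in sham caudal cord (SD, n = 4 and 3). The difference was 1.20 ± 0.20 (95% interval 0.78 to 1.63, adjusted p = 0.000837), or 2.30-fold (1.72 to 3.09), and 1.03 ± 0.18 without caudal array 271 (adjusted p = 0.00109). With only the compared groups in the fit it was not called (adjusted p = 0.0766). At 24 h the caudal arrays gave 8.60, 8.53 and 8.42, inside the range of the sham caudal arrays. Caudal cord at 48 h was above caudal cord at 24 h by 1.17 ± 0.20 (adjusted p = 0.0022), again with no overlap. Ptgs2 and Alox5ap were the 2 genes of the 8 called between the times below T6, where 6.69% of all genes were called, 4.24% as higher, and none was called above T6, where 0.363% were. No overlap in the higher direction was found for these 2 of the 8 and for 5.91% of all genes. With only the compared groups in the fit, none of the 8 was called between the times below T6.

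Above T6 at 48 h Alox5ap gave 9.51, 9.11, 8.80 and 8.52, against 8.42, 8.56, 8.66 and 8.53 on the sham rostral arrays. Arrays 271, 272 and 273 were above every sham array and 274 was among them. The difference of 0.44 ± 0.19 had an unadjusted p of 0.0289 and an adjusted p of 0.556. With arrays weighted by quality it was 0.52 (adjusted p = 0.0121), and without rostral 48 h array 271 it was 0.27 (adjusted p = 1.0).

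Alox5, the 5-lipoxygenase, had 1 probe set. It gave 7.85, 7.15, 7.20 and 7.09 on caudal 48 h arrays 271 to 274, against 6.86, 7.0 and 7.16 on the sham caudal arrays. Array 271 was far above the rest, and arrays 272 and 274 lay below the highest sham array. The difference of 0.31 ± 0.15 was not called (95% interval −0.01 to 0.64, adjusted p = 0.154). Ltc4s, the leukotriene C4 synthase, gave 7.13, 6.96, 7.22 and 7.29 on the caudal 48 h arrays and 7.02, 7.14 and 7.26 on the sham caudal arrays, in overlapping ranges (difference 0.01 ± 0.12, 95% interval −0.25 to 0.27).

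Small separations at 24 h went the other way and were not called. On the rostral arrays Ltc4s gave 7.21, 7.24 and 6.86 at 24 h, against 7.36, 7.28, 7.60 and 7.30 in sham cord, a difference of −0.28 ± 0.12 with an unadjusted p of 0.0329 and an adjusted p of 1.0. The lowest of these values came from the array numbered 283, and without both arrays of that number the difference was −0.16. Ptger4 gave 7.76, 7.86 and 7.93 on the rostral 24 h arrays, against 7.97, 8.01, 8.07 and 7.96 on the sham rostral arrays (difference −0.15 ± 0.11). These 2 of the 8 genes lay wholly below sham, as did 4.35% of all genes. Below T6, Ptger2 at 24 h (5.53, 5.57 and 5.47) lay below its sham caudal values by −0.19 ± 0.15, the only one of the 8 to do so, against 10.5% of all genes. The last 24 h values given here for Ptger4 and Ptger2 also came from arrays numbered 283, whose region labels are in doubt. The array of that number labelled caudal gave 7.96 for Ptger4, and the one labelled rostral gave 5.80 for Ptger2, above its sham caudal values.

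**Figure D2:**
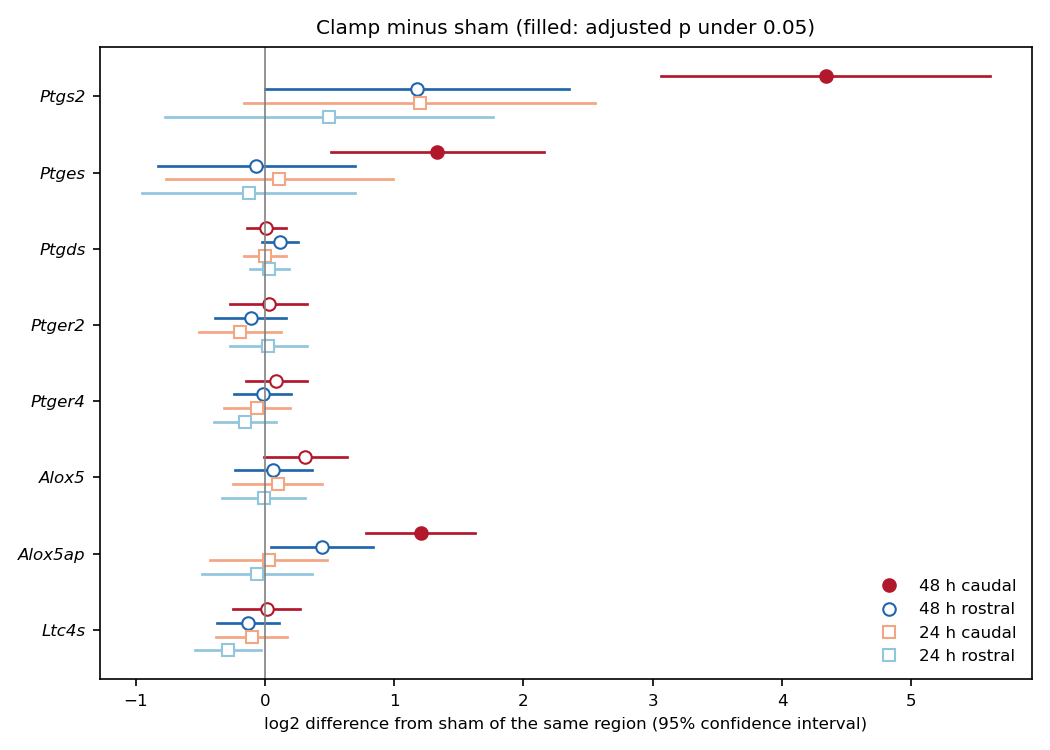
Log2 difference of each of the 8 measured genes from sham of the same region, with 95% confidence intervals, for 48 h caudal, 48 h rostral, 24 h caudal and 24 h rostral arrays; filled symbols passed the adjusted p of 0.05. The filled symbols are those of Ptgs2 (4.34), Ptges (1.33) and Alox5ap (1.20) at 48 h below T6.

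The same 3 genes were higher below than above T6 at 48 h, where 9.71% of all genes were called and 5.57% were higher. Ptgs2 was higher in caudal cord by 3.18 ± 0.56 (adjusted p = 0.00158), or 9.05-fold, with no overlap, as in 5.23% of all genes. Without caudal array 271 this difference was 2.66 ± 0.52 (adjusted p = 0.00313). Ptges was higher by 1.28 ± 0.36 (adjusted p = 0.0330) and Alox5ap by 0.70 ± 0.19 (adjusted p = 0.0226), both with overlapping arrays. The call for Ptges ended without any 1 of caudal arrays 271 and 272 or rostral arrays 271, 272, 273 and 274 (adjusted p = 0.0761, 0.0764, 0.0562, 0.0528, 0.0950 and 0.0847), and without both arrays numbered 283 (adjusted p = 0.0521). That for Alox5ap ended without caudal array 271 (0.53, adjusted p = 0.0507) or rostral array 273 (adjusted p = 0.0828) or 274 (adjusted p = 0.0909). With arrays weighted by quality the difference was 0.76 for Ptges (adjusted p = 0.0107) and 0.44 for Alox5ap (adjusted p = 0.0576). With only the compared groups in the fit, none of the same 3 genes was called between the regions at 48 h.

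In sham cord none of the 8 genes was called between the regions, where 0.335% of all genes were. Ptgs2 differed by 0.02 ± 0.61 and Alox5ap by −0.06 ± 0.20. Ptges (−0.12 ± 0.39) and Ltc4s (−0.25 ± 0.12, adjusted p = 0.914) were lower in caudal cord on every sham array, as were 8.67% of all genes. The test of whether the 48 h clamp effect differed between regions called none of the 8, where 0.561% of all genes were called. The difference of effects was 3.16 ± 0.83 for Ptgs2 (unadjusted p = 0.00116, adjusted p = 0.103), 1.4 ± 0.54 for Ptges (adjusted p = 0.344) and 0.76 ± 0.28 for Alox5ap (adjusted p = 0.306). Without caudal 48 h array 274 it passed the threshold for Ptgs2 (3.62, adjusted p = 0.0145) and Ptges (1.86, adjusted p = 0.0124), and without caudal arrays 271, 274 and 280 likewise (2.96, adjusted p = 0.0482, and 1.46, adjusted p = 0.0321).

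The 3 genes that rose moved together over the arrays. Pearson's r over the 21 arrays was 0.892 between Ptgs2 and Alox5ap, 0.822 between Ptgs2 and Ptges and 0.781 between Ptges and Alox5ap. With group means removed it was 0.681, 0.678 and 0.609. These values are a description, since the arrays share treatment, region and array quality. The genes most like each over these arrays were Bst2 (r = 0.974), Pvr (0.974) and Iigp1 (0.974) for Ptgs2, Esm1 (0.978), Cxcl3 (0.978) and Clec4e (0.965) for Ptges, and Ms4a6c (0.965), Ccl6 (0.964) and Fcgr4 (0.961) for Alox5ap.

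Markers of other cells moved beside these genes. The 7 measured monocyte and macrophage markers averaged 8.90, 8.44, 8.49 and 7.94 on caudal 48 h arrays 271 to 274, against 6.84 to 7.13 on sham caudal arrays. On rostral 48 h arrays they averaged 7.89, 7.91, 7.60 and 7.22, against 6.92 to 7.17 on sham rostral arrays. Array 274 was the lowest of its group in both regions, as it was for Ptgs2 and Alox5ap. Of the 7 markers, 3 rose below T6, Cd14 (4.54), Fcgr1 (2.79) and F13a1 (1.01), and none above it. The 7 neutrophil markers averaged 8.12 to 10.23 on caudal 48 h arrays and 7.63 to 9.31 on sham caudal arrays, with 1 called (Mmp8, 1.71 higher), and 6.48 to 6.87 on rostral 48 h arrays against 7.27 to 7.78 on sham rostral arrays. Array 274 was not the lowest for the neutrophil list, with 9.35 in caudal cord and 6.87, the highest of its group, in rostral cord. Between the regions at 48 h, 5 of the 7 neutrophil markers were called higher in caudal cord, against 5.57% of all genes. In sham cord their median difference between the regions was already 1.31, with none called. For the regional difference of the 48 h clamp effect none of the 7 was called.

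None of the 7 mast cell markers was called (average 4.84 to 5.71 on caudal 48 h arrays, 4.85 to 4.90 on sham caudal arrays). Of 5 microglial markers 1 fell below T6 (Sall1, −0.62), and of 7 endothelial markers 4 fell there, Tek (−1.53), Slco1c1 (−1.47), Slco1a4 (−1.01) and Cldn5 (−0.61). Of 6 neuronal markers Map2 (−0.40) and Nefl (−0.31) fell below T6, with a median of −0.38 over the list, and of 6 astrocyte markers Gfap rose (0.77). Among 9 markers of meningeal fibroblasts Aldh1a2 rose (0.92) and Col1a1 fell (−1.23), and among 6 platelet markers Itga2b rose (0.48) and Gp1bb fell (−0.89). None of 7 oligodendrocyte markers and none of 4 markers of sensory ganglia was called there. In such bulk samples a change in the number of cells of a type and a change in RNA per cell cannot be told apart. The part of these cells in the levels of Ptgs2, Ptges and Alox5ap was not tested.

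**Figure D3:**
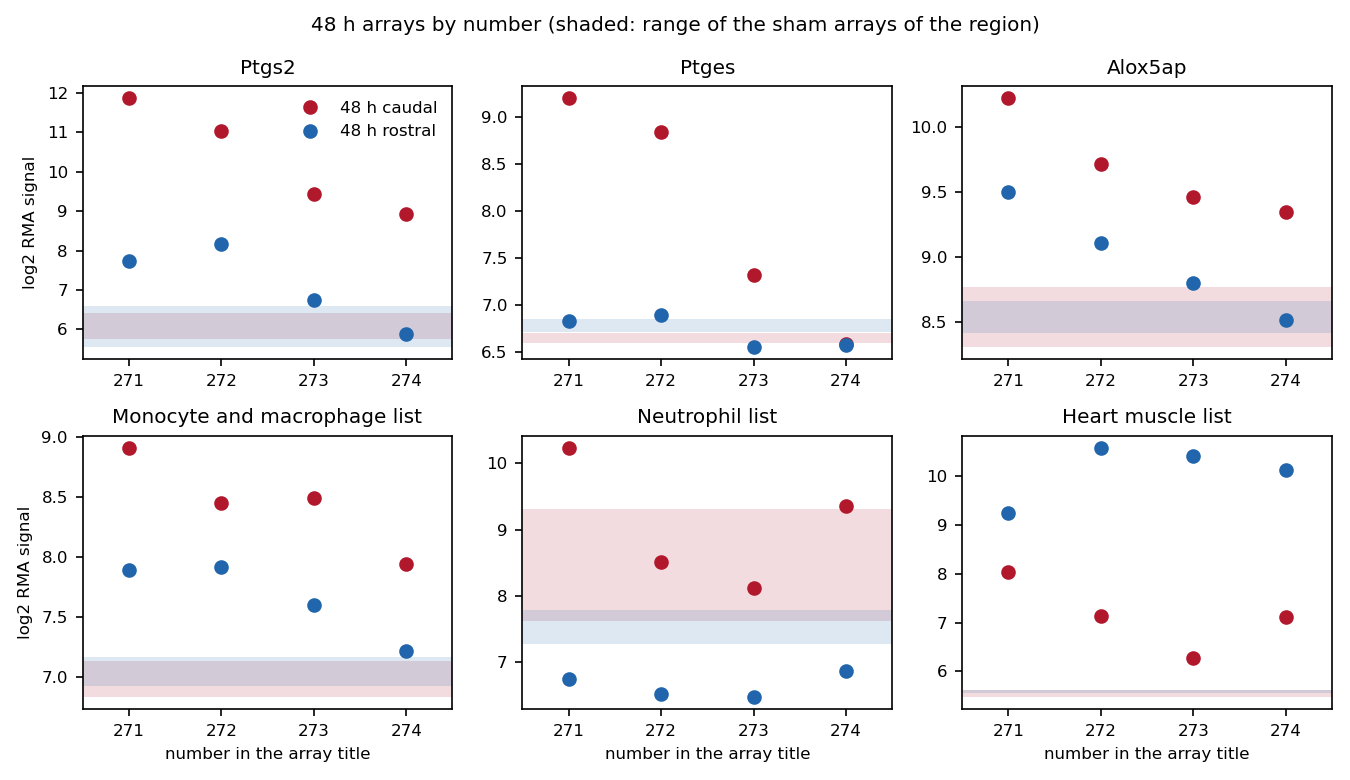
Log2 RMA signal of Ptgs2, Ptges and Alox5ap (upper row) and mean log2 signal of the monocyte and macrophage, neutrophil and heart muscle lists (lower row) on the 48 h arrays by number, caudal in red and rostral in blue, with the range of the sham arrays of the region shaded. On caudal arrays Ptgs2 is 11.86 on array 271 and 8.92 on array 274, and Ptges on array 274 (6.59) lies just below the sham caudal range.

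Beyond the listed genes, 49 of 54 other genes of the eicosanoid pathway were measured. At 48 h below T6, 7 of them rose and 3 fell, with a median difference of 0.19 against 0.00 over all genes, and above T6 1 rose (median −0.06). Below T6 12.5% of all genes were called, 5.52% as higher and 7.02% as lower, and above it 0.61% were called. At 24 h none of the 49 was called in either region. The 10 calls at 48 h below T6 became 5 without sham caudal array 278 or 279.

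The gene with the largest of these changes was Hpgd, the 15-hydroxyprostaglandin dehydrogenase that starts the breakdown of prostaglandins. It gave 11.28, 9.92, 10.04 and 9.62 on caudal 48 h arrays 271 to 274, against 8.06, 8.31 and 7.73 on the sham caudal arrays. All 4 clamped arrays were above all sham arrays, by 2.18 ± 0.29 (adjusted p = 0.000124), and by 1.83 ± 0.21 without array 271. Above T6 it gave 8.35, 8.30, 7.44 and 8.04, against 8.22, 8.38, 8.50 and 8.39 on the sham rostral arrays, in overlapping ranges (difference −0.34 ± 0.27, adjusted p = 1.0). The clamp effect differed between the regions by 2.52 ± 0.40 (adjusted p = 0.00352), and caudal was above rostral cord at 48 h by 2.18 ± 0.27 (adjusted p = 8.38e-05). Hpgd was the 1 pathway gene for which the difference of effects was called. Its second probe set differed by 1.64 at 48 h below T6 (adjusted p = 0.00203).

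Of 16 further genes of prostanoid synthesis and supply, 2 rose below T6 at 48 h and 1 fell. Thromboxane synthase, Tbxas1, was higher by 0.47 ± 0.13 (adjusted p = 0.0291), and the secreted phospholipase Pla2g3 by 1.0 ± 0.29 (adjusted p = 0.0315). Pla2g3 gave 7.90, 7.85, 8.85 and 7.74 on the caudal 48 h arrays and 7.03, 7.04 and 7.18 on the sham caudal arrays. It was also the 1 pathway gene called above T6 (1.48 ± 0.27, adjusted p = 0.00854). The rostral 48 h arrays gave 8.49, 8.27, 9.30 and 7.49, against 6.86, 6.86, 6.80 and 7.10 on the sham rostral arrays. In both regions array 273 was the highest, and the ranges did not overlap. The calcium-independent phospholipase Pla2g6 was lower by −0.77 ± 0.23 (adjusted p = 0.0341), but another of its probe sets differed by 0.54 the other way, and with the mean of its probe sets the call ended (−0.08, adjusted p = 0.544).

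These smaller calls rested on few sham arrays. For Tbxas1 they ended without sham caudal array 278, 279 or 280 (adjusted p = 0.111, 0.0735 and 0.0777) or without caudal arrays 271, 274 and 280 (0.24, adjusted p = 0.0974). For Pla2g3 below T6 they ended without the same sham arrays (adjusted p = 0.106, 0.0899 and 0.0765), without caudal 48 h array 273 (0.75, adjusted p = 0.0560) and without both arrays numbered 283 (adjusted p = 0.0504). For Pla2g6 they ended without each of these sham arrays (adjusted p = 0.104, 0.0768 and 0.108) and without both arrays numbered 283 (adjusted p = 0.0551), and without caudal 48 h array 271 the difference was −0.44 (adjusted p = 0.00989). The call for Pla2g3 above T6 ended when array 276 was counted as 48 h rostral (1.26, adjusted p = 0.0901).

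None of the 7 other prostanoid receptors was called in either region at 48 h, with median differences of 0.04 below and −0.09 above T6. Among 12 leukotriene and other lipoxygenase enzymes, 3 rose below T6 and 1 fell. Dpep1, a dipeptidase that turns leukotriene D4 into E4, gave 7.41, 7.65, 7.32 and 5.81 on the caudal 48 h arrays, against 5.68, 5.63 and 5.66 on the sham caudal arrays (1.39 ± 0.29, adjusted p = 0.0055). Array 274 was close to sham and the other 3 were well above it. Above T6 Dpep1 gave 6.42, 6.64, 6.12 and 5.69 at 48 h, against 5.52, 5.57, 5.61 and 5.76 on the sham rostral arrays. That difference of 0.60 was not called, but with arrays weighted by quality it was 0.67 (adjusted p = 0.00449). Cyp4f18, which in mice breaks down leukotriene B4, gave 7.83, 6.22, 5.89 and 5.57, against 4.96, 4.88 and 5.12 (1.39 ± 0.33, adjusted p = 0.0104), while another of its probe sets differed by 0.03. Array 271 was the highest, and without it the difference was 0.91 (adjusted p = 0.000373). The sham caudal signals of Cyp4f18 all lay below 5.17, the smallest lower quartile of any array. How far this dim reference sets the size of the difference was not tested.

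Aloxe3, a lipoxygenase best known from the epidermis, was higher by 0.45 ± 0.12 (adjusted p = 0.0237), a call that ended without sham caudal array 278, 279 or 280 (adjusted p = 0.0937, 0.0806 and 0.0503). Lta4h, the leukotriene A4 hydrolase that makes leukotriene B4, was lower by −0.43 ± 0.11 (adjusted p = 0.0175). Its probe sets disagreed, with differences of 0.49 and −0.52 on the other 2, and the call ended with their mean (−0.16, adjusted p = 0.134) and without sham caudal array 278 or 279 (adjusted p = 0.0938 and 0.0653).

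Of 8 receptors for leukotrienes and pro-resolving lipids, or genes that act through them, 1 rose and 1 fell below T6. Fpr2, a formyl peptide receptor that also binds lipoxin A4, gave 9.0, 9.36, 7.44 and 7.08 on the caudal 48 h arrays, against 6.50, 6.22 and 6.84 on the sham caudal arrays. It was higher by 1.70 ± 0.37 (adjusted p = 0.00653) with no overlap. Gpr37, an orphan-type receptor found in oligodendrocytes, was lower by −0.96 ± 0.21 (adjusted p = 0.00632). Above T6 it gave 10.31, 10.47, 10.75 and 11.15 at 48 h, all below the sham rostral values of 11.32, 11.42, 11.32 and 11.30. That difference of −0.67 was not called.

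Between the regions at 48 h, 8 of the 49 pathway genes were higher in caudal cord and 2 lower, where 5.57% of all genes were called as higher and 4.14% as lower. The 6 already named were Hpgd, Fpr2 (1.84 ± 0.34, adjusted p = 0.00239), Cyp4f18 (1.18 ± 0.30, adjusted p = 0.0186) and Tbxas1 (0.45 ± 0.12, adjusted p = 0.0273), which were higher, and Gpr37 (−0.88 ± 0.19, adjusted p = 0.0075) and Lta4h (−0.33 ± 0.10, adjusted p = 0.0480), which were lower. The other 4, named after their values were seen, were Anxa1 (1.24 ± 0.27), Ptgr1 (0.82 ± 0.17), Ptgir (0.49 ± 0.11) and Cmklr1 (0.48 ± 0.11), all higher in caudal cord. The call for Lta4h ended in 18 of 21 fits with a single array left out, that for Tbxas1 without rostral 48 h array 272, 273 or 274 (adjusted p = 0.0711, 0.0749 and 0.0502) and that for Cyp4f18 without rostral 48 h array 273 or 274 (adjusted p = 0.0608 and 0.0597). Without caudal array 271 the difference was 0.29 for Tbxas1 and 0.69 for Cyp4f18. With arrays weighted by quality the difference of Gpr37 was −0.42 (adjusted p = 0.108). In sham cord none of the 49 was called between the regions. There Gpr37 averaged 10.75 ± 0.31 on the caudal and 11.34 ± 0.05 on the rostral arrays (SD, n = 3 and 4), with no overlap. That sham difference of −0.59 ± 0.21 (adjusted p = 0.576) was called with arrays weighted by quality (−0.52, adjusted p = 0.0309) and with only the compared groups in the fit (adjusted p = 0.0142).

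**Figure D4:**
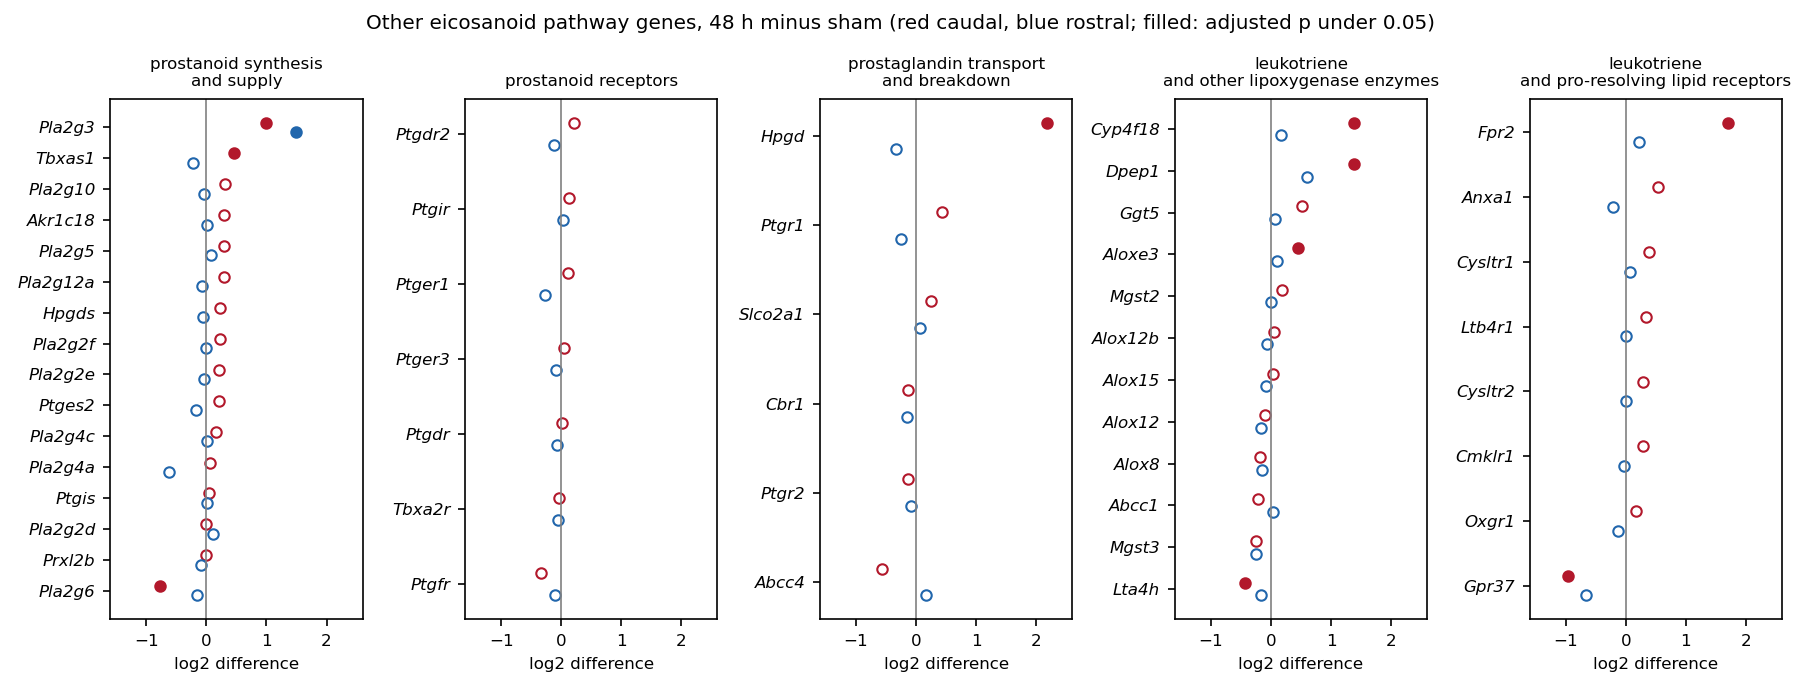
Log2 difference at 48 h from sham of the same region for the 49 other measured eicosanoid pathway genes, in 5 lists, with caudal cord in red, rostral cord in blue and filled points past the adjusted p of 0.05. Hpgd stands at 2.18 in caudal and −0.34 in rostral cord, and Pla2g3 is filled in both regions.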

How the data were processed

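Total RNA from caudal and rostral mouse spinal cord was measured on 22 Mouse430_2 arrays. The deposited log2 values were made by the authors with RMA, per the submitters' processing notes, with the version not given in the sources used here, and were used as they are. Scanner files were not used here, so the background correction was not varied. Of 45101 probe sets 64 are controls, 34945 carry 1 symbol, 932 several and 9160 none listed; 34741 of those with 1 symbol matched the RefSeq gene table by gene ID and 0 symbols differed. Keeping the brightest probe set per gene gave 18193 genes.

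Groups came from the treatment, time and region in the labels, and array 276 was in none. The fit used limma 3.58.1 in R 4.3.3 (functions lmFit and eBayes, with statmod 1.5.0 for the block) and estimated 6 group means from 21 arrays, so that all groups share 1 estimate of the spread (18.7 degrees of freedom with the prior). The groups did not scatter alike. For Ptges the SD was 1.24 in caudal cord at 48 h and 0.05 to 0.23 in the other groups. For this gene the shared estimate is thus too small for caudal cord at 48 h and too large for the rest. The SD of Ptgs2 was 1.37 in caudal cord at 48 h and 0.38 to 1.02 in the other groups. Its intervals for caudal cord at 48 h may therefore be too narrow. There were 9 contrasts, two-sided, each adjusted on its own by Benjamini-Hochberg over all genes at 0.05. The fit was tested on simulated data in which a gene had the same spread in every group and the arrays were independent. That test therefore does not cover groups of unequal spread or outlying arrays. The listed genes, the pathway lists, the marker lists and the alternatives were chosen with earlier results of these data known. The text names all measured listed genes, up to 4 called pathway genes per list and clamp contrast with the smallest p, and the 3 genes most correlated with each called gene.

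The alternatives averaged a gene's probe sets or kept them all, centred or again quantile-normalised the arrays, took the brighter genes, used a robust trended prior or weights for the arrays, fitted the compared groups alone, took the title number as a block (random, or fixed for the regional difference), gave array 276 either time, and left out the arrays that stood apart or any single array. Arrays give no read depth, and their number limits the precision.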

Additional observations from a re-analysis of the deposited data

Results flagged for a closer look

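Alox5 on caudal 48 h array 271, at 7.85, stood far from the other 3 arrays of its group, with a gap of 0.857 of the group's range. Ltc4s on rostral 48 h array 274, at 7.13, was far below the other 3 rostral 48 h arrays, with a gap of 0.890 of the range. These were 2 of 24 groups of 4 arrays examined for such a gap, and chance gives about 1 in 20.

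Rostral array 276, whose labels give both times, is in no comparison. It was above the highest sham rostral array for 4 of the 8 measured genes: Ptgs2 (7.0 on array 276 against 6.60), Alox5ap (8.69 against 8.66), Ptger4 (8.16 against 8.07) and Ptgds (14.22 on both after rounding). The share of all genes for which this array did so was not computed, so the count does not set these genes apart. Its heart muscle list averaged 10.32, against 9.23 to 10.57 on the rostral 48 h arrays and 5.57 to 5.80 on the rostral 24 h arrays.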

How the results depend on the processing

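No difference of a listed gene changed sign with a call. Ptgs2 below T6 at 48 h against sham was called under all 12 other settings and all 21 single arrays left out (3.5 to 4.80 on the log2 scale), and Alox5ap under 12 of 13 and all 21. The counts of listed genes called moved as follows. With only the compared groups in the fit, the spread comes from fewer arrays and from those groups alone. The count was then 1 of 8 for 48 h against sham below T6, 0 for 48 h against 24 h below T6 and 0 for caudal against rostral cord at 48 h. Among the brighter genes, where 3 of the 8 remain by construction, it was 1 in each of these. Without both arrays numbered 283 it was 1 for 48 h against 24 h below T6. With array weights it was 2 for 48 h against sham above T6, 1 for 48 h against 24 h above T6 and 2 for the regional difference of the clamp effect, and the cause was not tested. That last count was also 2 without caudal arrays 271, 274 and 280, and 0 to 2 over single arrays left out (2 without caudal 48 h array 274). For caudal against rostral cord at 48 h it was 1 to 3 over single arrays left out, with 1 without caudal array 271 or rostral array 273 or 274. With the title number as a replicate block the regional difference of the clamp effect was called for 1 gene as a random block (Ptgs2, adjusted p = 0.0474; correlation within a number 0.138) and for 2 as a fixed block (Ptgs2, adjusted p = 0.0198, and Alox5ap, adjusted p = 0.0422); the block moved no other count of listed genes. Over the 10 numbers shared by a caudal and a rostral array the correlation of deviations from the group means ran from −0.45 to 0.53 and was over 0.1 in 6. It was positive for all shared numbers of the 48 h and sham groups (0.09 to 0.53). The negative values were those of the 24 h numbers 281, 282 and 283 (−0.19, −0.03 and −0.45), where the region labels of 283 are in doubt. The labels do not say that arrays of one number share an animal, so the main fit did not take them as pairs. The count of all genes at 48 h below T6, 2282, was 142 with only the compared groups, 6245 with array weights and 4661 without caudal arrays 271, 274 and 280. It was 805 to 5736 over single arrays left out (805 without sham caudal array 278, 5736 without caudal 48 h array 274). The count of the 49 pathway genes, 10, was 1 (Hpgd) with only the compared groups, 4 among the brighter genes and 16 with array weights. Dim probe sets such as that of Ptger2 sit close to the background, where small changes may not be detectable.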
